A study of Danio rerio with 3 samples.

Results

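Zebrafish embryos labelled as maternal-zygotic mutants for nup85 and nup133 were compared with wild-type embryos at the same morphology, the dome stage, by RNA sequencing. The comparison holds 1 library on each side. Genes were members when they had an FPKM value (a read density corrected for transcript length and library size) and reached at least 5 FPKM in the higher of the dome libraries. Of the 25386 genes with values, 10443 (41.1%) were members. Of these, 8142 reached 5 FPKM in both libraries, 1233 only in the mutant and 1068 only in the wild type. Each gene was described by log2((mutant FPKM + 1)/(wild-type FPKM + 1)), a scale that understates the difference of low genes. Just inside the filter stood coq7, at 4.56 FPKM in the wild type and 5.0 in mutants, sh2b3 at 5.0 and 4.94, and sp4 at 5.0 and 4.26. Just outside it stood crema, at 1.67 FPKM in the wild type and 4.99 in mutants, and ltk at 4.99 and 1.13.

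Both groups were dechorionated whole embryos of the AB strain. The wild-type library was taken at 4.3 hours post fertilization (hpf). The dome mutant library was taken at 7 hpf, from embryos labelled as maternal-zygotic (MZ) mutants for both genes, a term for mutant embryos laid by mutant mothers. One more library of the series, from MZ mutants at 4.3 hpf with the stage tag 1k, is given beside the members for orientation only. The alleles, the number of embryos pooled and the number of parents are not described in the sources used here. Genotype and clock age differ together between the dome libraries, so their parts in any difference cannot be told apart. With 1 library per group nothing was tested, and differences are described by size alone, with genes at least 2-fold apart called higher or lower and the others called within 2-fold. Where 2 levels of a gene follow each other they are those of the wild type and of the mutant at dome, and where 3 do, the mutant at 4.3 hpf stands between them.

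At fertilization the zebrafish embryo depends on RNA that the egg supplied. During the blastula stages the embryo's own genome is switched on and many egg-supplied transcripts are broken down. At dome the cap of cells begins to thin over a doming yolk, the outer enveloping layer has become an epithelium, the yolk syncytial layer beneath has formed, and the signals that set the axes and germ layers are being read. Nup85 and Nup133 belong to the Y complex, a scaffold unit of the pores through which RNA leaves and proteins enter the nucleus.

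Most transcripts stood at similar levels in the libraries at dome. Of the 10443 genes, 7456 (71.4%) were within 2-fold. At least 2-fold higher in the mutant were 1480 genes (14.2%), and 1507 (14.4%) were at least 2-fold lower. At 4-fold the split was uneven, with 535 genes (5.12%) higher and 181 (1.73%) lower. At 8-fold there were 166 higher and 17 lower, at 16-fold 72 and 3, and at 32-fold 26 and 0. The genes at least 4-fold higher summed to 2738 FPKM in the wild type and 25414 in mutants, which is 0.645% and 5.89% of all FPKM. The genes at least 4-fold lower summed to 6619 and 1158 FPKM. The balance at 2-fold depended on the scaling. Dividing out the proteasome genes took the all-gene median of the log2 ratios from -0.11 down to -0.59 and gave 824 genes higher and 3037 lower, so that higher genes made up 21.3% of those apart instead of 49.5%. The proteasome genes were themselves raised as deposited, with 10 of 38 higher, 1 lower and a median of 0.45. This scaling therefore multiplied the mutant values by 0.72, while the other scalings tried used factors from 0.97 to 1.02. It is the most severe of them and not a neutral reference. Ratios below are on the values as deposited, and a list is read against the all-gene median and shares.

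**Figure D1:**
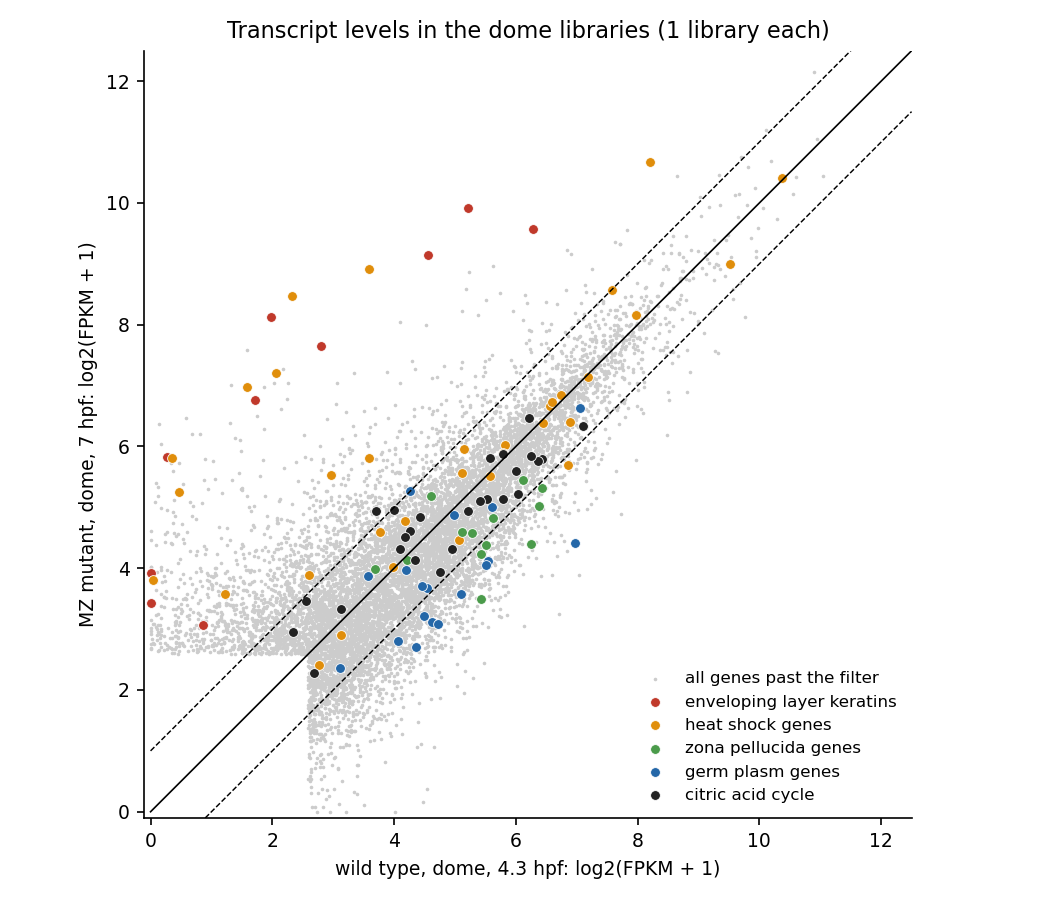
Each point is a gene past the filter, placed by log2(FPKM + 1) in wild-type dome embryos (x) and in MZ mutant dome embryos at 7 hpf (y), 1 library each. The solid line marks equal levels and the dashed lines 2-fold, coloured points are 5 gene lists, and keratins and several heat shock genes sit far above the lines while germ plasm and zona pellucida genes lie on or below equality, apart from a few.

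The share within 2-fold was larger among abundant genes. It was 60.8% for genes with a mean of 2.5 to 10 FPKM over the dome libraries, 70.9% from 10 to 30, 81.1% from 30 to 100 and 85.8% from 100 to 300. Among the 127 genes above 300 FPKM it was 81.9%. The filter in part fixes the lowest share, since a gene with a mean under 5 FPKM enters only with unequal levels. The 6 most abundant named genes with close levels were RNA-binding, chaperone, chromatin and nucleotide synthesis genes. The splicing regulator gene hnrnpa0l stood at 1970 FPKM in the wild type and 2125 in mutants. Its relative hnrnpabb stood at 1549 and 1368, and the RNA-binding gene rbm4.3 at 892 and 1003. The constitutive chaperone gene hspa8 stood at 1327 and 1355, the chromatin protein gene hmgb2a at 978 and 1208, and rrm2, a subunit of ribonucleotide reductase, at 1064 and 971. All 6 were lower in the mutant at 4.3 hpf, from 393 FPKM for rbm4.3 to 805 for hnrnpabb.

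Of the mutated genes, nup133 was lower and nup85 was within 2-fold. The nup133 transcript stood at 11.7 FPKM in the wild type, 0.31 in the mutant at 4.3 hpf and 1.91 in the mutant at dome, a log2 ratio of -2.12. The nup85 transcript stood at 13.2, 10.35 and 9.55 FPKM, a log2 ratio of -0.43, which checks no label since the alleles are not described. Among 28 nucleoporin genes, 26 were within 2-fold and 0 were higher. The other lower member was nup35, a pore component, at 109 FPKM in the wild type and 45.4 in mutants. The nucleoporin median of -0.32 lay below the all-gene median of -0.11, and on the proteasome scaling 8 of the 28 were lower.

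Genes of the enveloping layer, the flat outer epithelium that builds the first skin of the embryo, held many of the largest differences. All 10 keratin genes past the filter were at least 4-fold higher in the mutant, 6 of them reaching 5 FPKM only there, with log2 ratios from 2.21 to 6.16. Keratins form the intermediate filaments of epithelia. Type II krt8 stood at 36.0 FPKM in the wild type, 4.31 in the mutant at 4.3 hpf and 969 at dome. Its filament partner krt18 stood at 76.8, 0.16 and 759 FPKM. The gene krt97 stood at 5.98, 0.74 and 200.3 FPKM. Summed over the 20 listed keratins with values, FPKM came to 148 in the wild type and 2969 in mutants, or 0.0350% and 0.688% of the library. The other 10 listed members stayed under 5 FPKM in both libraries, and the median over all 20 was 2.09. Since the RNA came from whole embryos, more cells of a type and more RNA per cell cannot be told apart here or in any list below.

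The junction and barrier genes of the same layer differed in direction from member to member. Of 42 genes past the filter, 16 were higher, 23 within 2-fold and 3 lower, and 11 of the 42 passed only through the mutant. Desmosome and cornified envelope genes were among the higher ones. The linker gene dspa (desmoplakin) stood at 1.39 FPKM in the wild type and 24.3 in mutants. The plakin gene ppl (periplakin) stood at 6.15 and 52.9, and pkp3a (plakophilin) at 0.21 and 23.2. The surface protein gene lye stood at 35.4 FPKM in the wild type, was listed at 0 in the mutant at 4.3 hpf and reached 382 at dome. The calcium-dependent protease gene capn9 stood at 0.86 and 54.5 FPKM at dome, and the membrane-binding annexin gene anxa1a at 4.24 and 52.8.

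Claudins, which seal tight junctions, were found on both sides. Higher were cldne, at 22.1 FPKM in the wild type and 254 in mutants, cldnb at 8.0 and 56.7, and cldnf at 1.24 and 21.7. Lower was cldng, at 200 FPKM in the wild type and 47.7 in mutants, and its level in the mutant at 4.3 hpf was 251. Also lower was cldn12, at 39.7 and 13.1. The abundant cldn7b stood at 210 and 244, and its adhesion partner epcam at 657 and 484. The tricellular junction genes marveld2a and marveld2b stood on opposite sides, with marveld2a at 39.4 FPKM in the wild type and 15.2 in mutants and marveld2b at 6.15 and 16.1. The membrane protease inhibitor gene spint1b was also lower, at 65.6 and 27.4 FPKM.

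Regulators of the enveloping layer had a median of 1.05, below that of the keratins at 4.65 and above that of the junction and barrier genes at 0.68. Of 20 past the filter, 5 of them only through the mutant, 10 were higher, 10 within 2-fold and 0 lower. The grainyhead gene grhl3, a driver of epithelial differentiation, stood at 107 FPKM in the wild type and 151 in mutants, while grhl1 stood at 5.9 and 33.5 and grhl2a at 2.09 and 12.4. The zinc finger gene klf17, active in this layer, stood at 173 and 163. Among the others, ovol1 stood at 10.9 and 63.5 FPKM and the C/EBP gene cebpb at 31.8 and 127. The kinase gene chuk, which the layer needs to differentiate, stood at 76.1 and 44.9. On the proteasome scaling 9 of the 20 were higher and 2 lower, with a median of 0.58, or 0.33 with the filter applied after it.

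**Figure D2:**
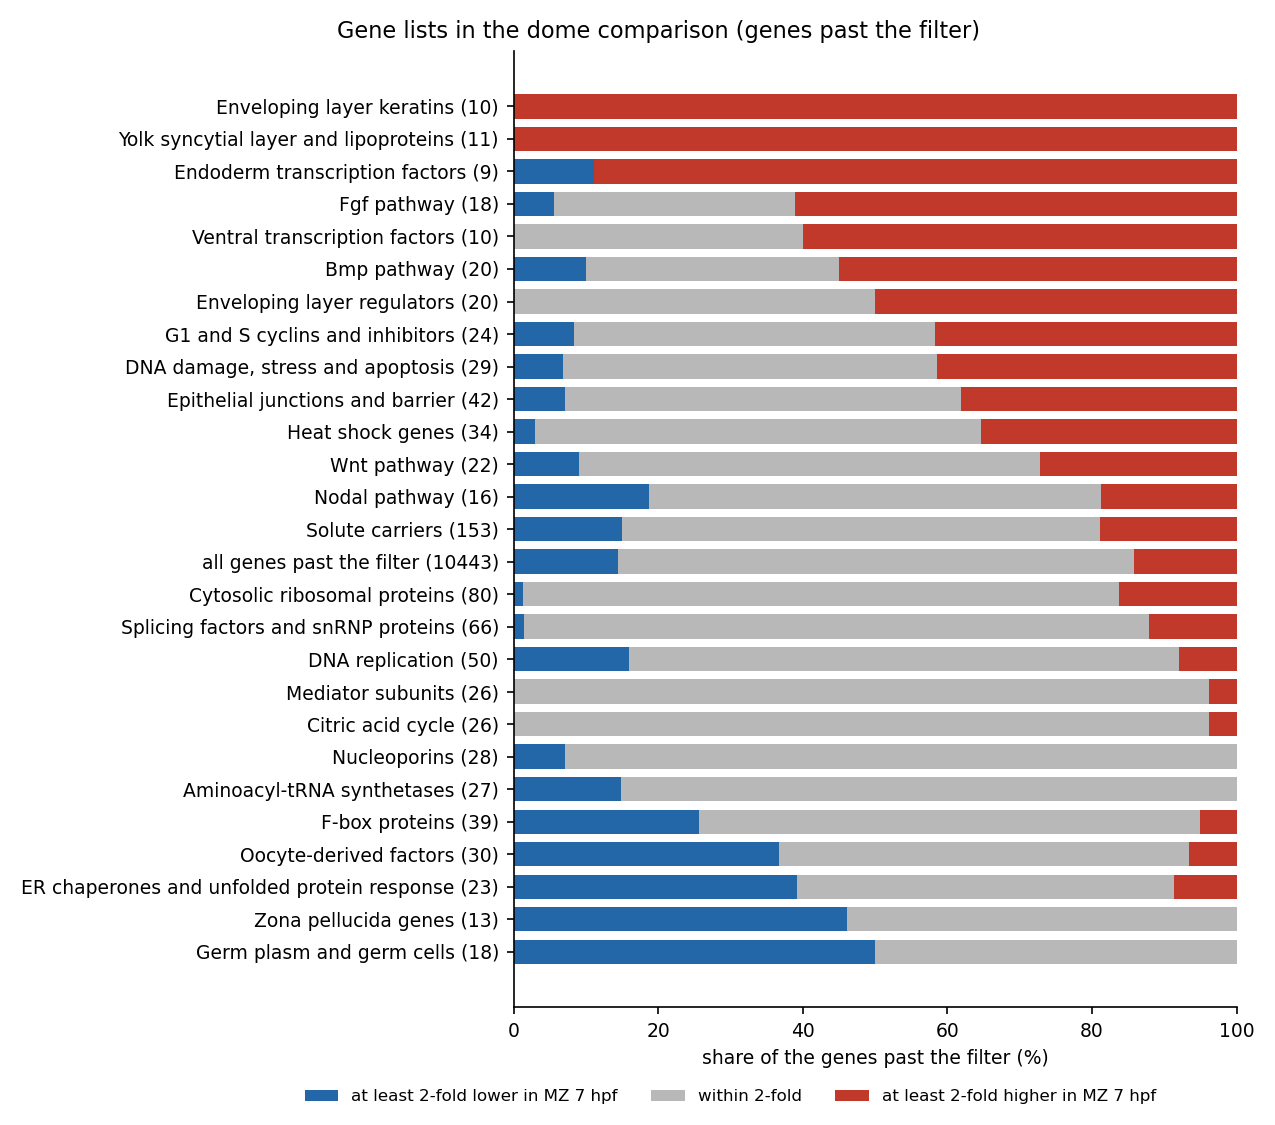
Bars give the share of each list's genes past the filter (number in parentheses) that were at least 2-fold lower, within 2-fold or at least 2-fold higher in the MZ mutant dome library than in the wild-type dome library. Keratins, yolk syncytial layer and endoderm genes are mostly higher, citric acid cycle and Mediator genes are mostly within 2-fold, and germ plasm and zona pellucida genes have the largest lower shares among the lists drawn, against 14.2% higher and 14.4% lower over all genes. Heat shock genes were listed after their values were seen. The bar labelled DNA damage, stress and apoptosis holds p53 targets and apoptosis genes.

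Genes of the yolk syncytial layer, which feeds the embryo from the yolk, and of the endoderm overshot as well. All 11 yolk syncytial and lipoprotein genes past the filter were higher, 7 of them reaching 5 FPKM only in the mutant, with a median of 2.89. The other 17 of the 28 listed genes with values stayed under 5 FPKM, and the median over all 28 was 0.26. Among regulators, mxtx2, which specifies the layer, stood at 77.3 FPKM in the wild type and 162 in mutants and was the closest to a match. The related homeobox gene mxtx1 stood at 11.1 and 35.1. Downstream, gata6 stood at 1.03 and 53.3 FPKM, hnf1ba at 1.83 and 20.05 and the lipoprotein gene apoeb at 197 and 655. The gene apoc1 stood at 7.49 and 32.9, and the sulfate transporter gene slc26a1 at 0.47 and 12.6.

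Endoderm factors included the gene with the endoderm master role, sox32, at 1.52 FPKM in the wild type, 0.18 in the mutant at 4.3 hpf and 42.9 in the mutant at dome. The GATA factor gene gata5 stood at 2.0 and 35.6 FPKM at dome, and the homeobox gene mixl1 at 11.1 and 78.7. Of 9 endoderm factors past the filter, 8 were higher, 6 of the 9 passing only through the mutant. The exception was eomesa, an egg-supplied T-box gene that acts upstream of them, at 111 FPKM in the wild type, 154 in the mutant at 4.3 hpf and 29.3 at dome.

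Transcription factors that pattern the axes mostly stood at or above the wild-type level. Of 10 ventral factors past the filter, 2 of them only through the mutant, 6 were higher and 0 lower. The ventral repressor genes vent, vox and ved stood at 10.4, 71.6 and 40.8 FPKM in the wild type and at 95.1, 328 and 283 in mutants. The even-skipped gene eve1 stood at 0.18 and 12.8. In the same list tfap2a, at 29.4 and 34.2 FPKM, and foxi1, at 24.0 and 39.4, were within 2-fold. Both are factors of the non-neural ectoderm, but the related tfap2c was higher, at 3.74 and 22.8 FPKM. Also higher was gata2a, at 23.2 and 53.15, while gata3, at 40.9 and 79.0, was within 2-fold.

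Of the dorsal organizer genes, 5 of 10 were higher and 0 lower, or 2 lower on the proteasome scaling, and 3 of the 10 passed only through the mutant. Their median of 1.21 lay below the 1.67 of the ventral factors. That order depended on the filter, since at a minimum of 1 FPKM the medians were 1.49 and 1.03. The homeobox gene dharma, the first zygotic organizer gene, stood at 7.42 FPKM in the wild type and 3.87 in mutants, and gsc (goosecoid) at 18.6 and 28.9. The notochord gene noto stood at 35.3 and 68.2, and foxa3 at 15.9 and 75.0. Among mesoderm genes, ta, the zebrafish Brachyury gene, stood at 8.98 and 80.0 FPKM and tbx16 at 60.9 and 297. The Snail genes snai1a and snai1b, at 114 and 170 FPKM and at 11.7 and 9.5, were within 2-fold.

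Neural and ectodermal factors were mixed, with 7 of 14 higher, 5 within 2-fold and 2 lower. On the proteasome scaling their median of 0.75 became 0.32 for the same 14 genes, and -0.02 with the filter applied after it. SoxB1 genes keep cells in a neural precursor state. Of these, sox3 stood at 68.1 FPKM in the wild type and 270 in mutants and sox19a at 46.3 and 173, while sox19b, supplied by the egg, stood at 129 and 30.1. The zinc finger gene zic2b stood at 101 and 322. Lower was her5, a Hairy-related repressor of the midbrain and endoderm, at 102 FPKM in the wild type, 1.04 in the mutant at 4.3 hpf and 29.6 at dome. The other lower gene was otx1b, at 78.9 FPKM in the wild type, 187 in the mutant at 4.3 hpf and 26.3 at dome. None of 48 hox genes reached 5 FPKM in either dome library. None of 20 markers of ovarian follicle, liver, blood, muscle and neurons did so either, and those summed to 6.02 FPKM in the wild type and 4.88 in mutants.

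Signalling genes differed by pathway and by role. In the Bmp pathway, which sets ventral fates, 11 of 20 genes past the filter were higher and 2 lower, with a median of 1.08, and 5 of the 20 passed only through the mutant. On the proteasome scaling 6 were higher and 2 lower, with a median of 0.64. Ligand genes were moderately higher, with bmp2b at 26.6 FPKM in the wild type and 58.3 in mutants and bmp7a at 14.4 and 38.6. The largest ratios belonged to extracellular modulators, of which 4 of 6 were higher, with 3 of the 6 passing only through the mutant. The gene szl (sizzled), an inhibitor of chordin-cleaving proteases, stood at 0.52 and 23.3 FPKM. The Bmp-binding bmper stood at 0.19 and 10.4, and the protease gene tll1, whose product cleaves chordin, at 0.36 and 8.17. The antagonist gene chd (chordin) stood at 11.9 and 35.2. The modulator genes twsg1b, at 16.1 and 24.2, and bmp1a, at 24.3 and 16.8, were within 2-fold. At the membrane, bambia, a pseudoreceptor gene, stood at 25.1 and 140 FPKM. Transducers supplied in bulk differed little, with smad5 at 280 and 267 and the receptor gene acvr1l at 91.2 and 102. Lower were the receptor gene bmpr1ba, at 18.4 and 5.0 FPKM, and the target gene id2a, at 19.4 and 6.64.

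In the Fgf pathway, which induces mesoderm, 11 of 18 genes were higher and 1 lower, with a median of 1.44, and 8 of the 18 passed only through the mutant. All 3 ligand genes past the filter, of 6 with values, were higher, but 2 of the 3 passed only through the mutant, which favours a higher ratio. Of these, fgf8a stood at 3.24 FPKM in the wild type and 25.6 in mutants, fgf3 at 3.95 and 15.9 and fgf17 at 7.74 and 26.2. Of 12 feedback and target genes 6 were higher, 5 within 2-fold and 1 lower. Among feedback inhibitors, spry1 stood at 2.54 and 11.4 FPKM and dusp4 at 9.02 and 32.3, while dusp6, at 30 and 49.1, and il17rd, at 57.4 and 37.2, were within 2-fold. The ETS target genes split. Of them, etv4 and etv5b stood at 23.8 and 63.2 FPKM in the wild type and at 78.3 and 124.5 in mutants. Their relative etv5a stood at 75.4 in the wild type, 185 in the mutant at 4.3 hpf and 24.3 at dome.

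Wnt and Nodal genes past the filter stood nearer to wild type. Over all genes with values, the Wnt median of 0.58 lay below the Fgf median of 0.97 but above the Bmp median of 0.41. Of 22 Wnt genes, 6 were higher, 14 within 2-fold and 2 lower, and on the proteasome scaling 2 were higher. The ligand gene wnt11, which guides cell movements, stood at 26.6 FPKM in the wild type and 83.2 in mutants, and the antagonist gene dkk1b at 4.95 and 16.4. The beta-catenin genes, ctnnb1 and ctnnb2, stood at 221 and 261 FPKM in the wild type and at 351 and 278 in mutants. Lower were lef1, the DNA-binding partner of beta-catenin, at 37.3 and 11.2, and the receptor gene fzd5, at 8.91 and 1.81. Of 16 Nodal genes, 3 were higher, 10 within 2-fold and 3 lower, and the median of 0.16 was -0.29 on the proteasome scaling. The ligand gene ndr2 stood at 2.78 and 14.0 FPKM and the antagonist gene lft2 at 10.3 and 22.2. The co-ligand gene gdf3, which the egg supplies, stood at 350.1 and 197, and the transducer gene smad2 at 107 and 44.0.

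**Figure D3:**
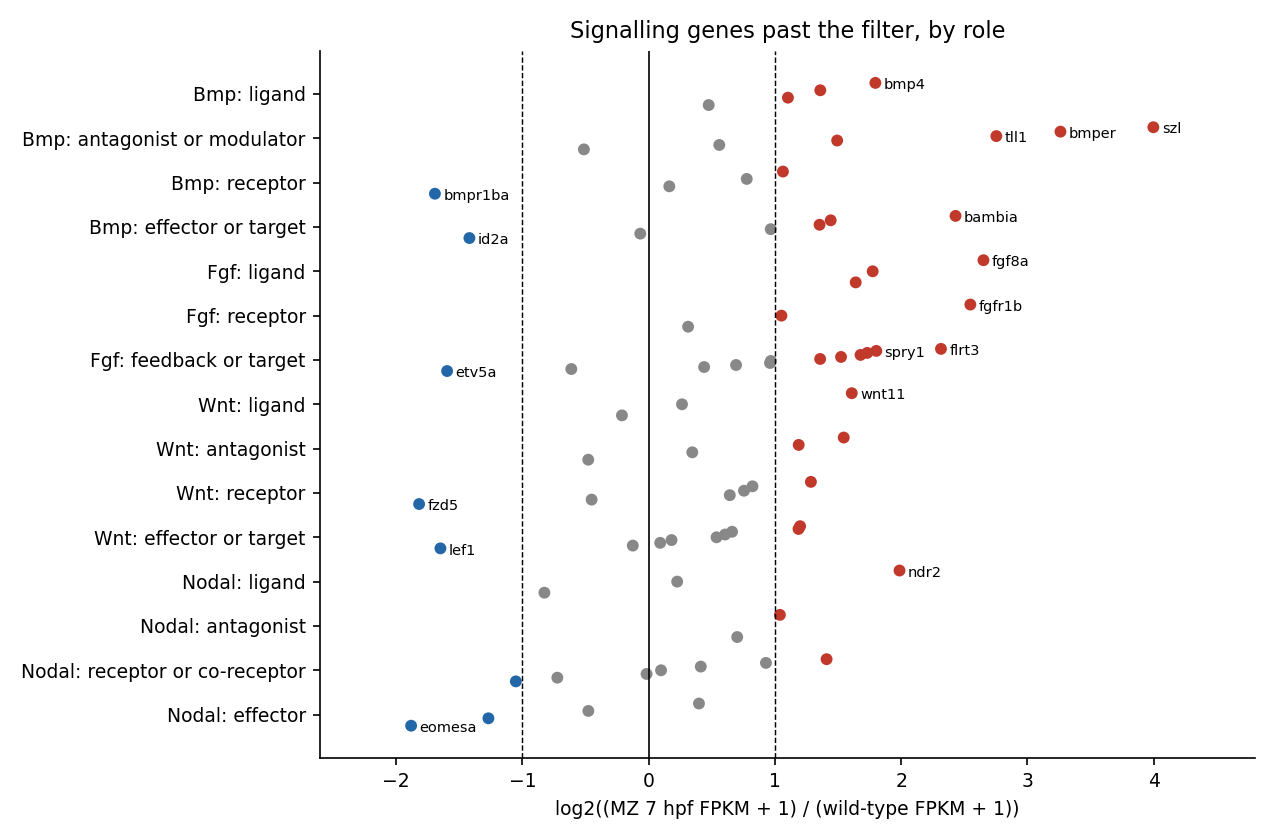
Points are the Bmp, Fgf, Wnt and Nodal genes past the filter, by role, at their log2 ratio of FPKM + 1 in the MZ mutant at 7 hpf over wild type, with dashed lines at 2-fold and 1 library per group. All 3 Fgf ligands and 4 of 6 extracellular Bmp modulators lie right of the 2-fold line, up to 3.997 for szl. Of these, 2 of the 3 ligands and 3 of the 6 modulators passed the filter only through the mutant. Some receptors and effectors, such as fzd5 at -1.82 and eomesa at -1.88, lie to the left.

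Genes for the guidance of gastrulating cells were higher or within 2-fold. Of 12 past the filter, 2 of them only through the mutant, 4 were higher and 0 lower, and 2 were higher on the proteasome scaling. The peptide gene apela stood at 33.1 FPKM in the wild type, 0.07 in the mutant at 4.3 hpf and 76.1 at dome. Its receptor gene aplnra stood at 23.6, 0.04 and 91.5 FPKM, and aplnrb at 63.2, 3.2 and 101. The chemokine gene cxcl12a stood at 9.55, 0.15 and 29.98 FPKM and the receptor gene cxcr4a at 68.2, 2.92 and 118. The scavenging receptor gene ackr3b stood at 29.7, 1.15 and 25.4. Each of these 6 genes was under 5 FPKM in the mutant at 4.3 hpf, but other members of the list were not. The higher gene s1pr2 stood at 1.88, 9.18 and 5.87 FPKM, and tdgf1, within 2-fold, at 88.0, 37.3 and 168.

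Some heat shock genes showed large differences while most of the list was within 2-fold, and the list was drawn up after its values were seen. Heat shock proteins hold unfolded proteins in the cytosol and nucleus, and some are made only under stress while others are made at all times. The list also holds chaperones of mitochondria and of collagen. Of its 34 genes past the filter, 12 were higher, 11 of them at least 4-fold, 21 were within 2-fold and 1 was lower. Of the 34, 7 passed only through the mutant. The median of the 34, at 0.33, was -0.14 on the proteasome scaling. The symbol family of chaperonin and heat shock proteins was less one-sided. Of its 64 genes past the filter, 12 were higher, 44 within 2-fold and 8 lower, with a median of 0.04. The higher share of this family was 18.75%, against 14.2% over all genes. In the list of 34, the largest differences were among stress-inducible genes. Inducible Hsp70 genes led, with hsp70.3 at 11.05 FPKM in the wild type, 3.63 in the mutant at 4.3 hpf and 483 at dome. Its relatives hsp70.1 and hsp70l stood at 3.15 and 0.27 in the wild type and at 147 and 55.4 in the dome mutant. Reads may be shared among these near-identical copies, so their single values are uncertain. The stress-inducible Hsp90 gene hsp90aa1.2 stood at 4.02, 2.21 and 354 FPKM. Small heat shock gene hspb1 stood at 295 in the wild type, 7.11 in the mutant at 4.3 hpf and 1630.0 at dome.

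The partners of these chaperones included higher and matching members. The Hsp90 activator gene ahsa1a stood at 0.03 FPKM in the wild type and 13.0 in mutants, the Hsp110 gene hsph1 at 1.34 and 10.97 and the mitochondrial co-chaperonin gene hspe1 at 6.82 and 45.3. The collagen chaperone genes serpinh1b and serpinh1a, whose products work in the endoplasmic reticulum, stood at 2.01 and 0.39 in the wild type and at 124 and 37.0 in mutants. By contrast the constitutive hsp90ab1 stood at 735 and 507 FPKM, and the co-chaperone gene dnaja2 at 251 and 286. The one lower gene was fkbp4, an Hsp90 co-chaperone, at 115 and 50.6.

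The chaperones listed for the endoplasmic reticulum, which fold secreted and membrane proteins, stood on the other side. Of 14 past the filter, 0 were higher, 6 were within 2-fold and 8 lower, and their median was -1.11 against -0.11 for all genes. This list leaves out serpinh1a and serpinh1b, collagen chaperone genes of the same compartment, which were higher and were counted with the heat shock genes. The Hsp70 of this compartment, hspa5 (BiP), stood at 272 FPKM in the wild type, 157 in the mutant at 4.3 hpf and 92.5 at dome. The Hsp90 of this compartment, hsp90b1, stood at 169, 54.8 and 57.7 FPKM. The disulfide isomerase genes pdia4 and pdia6 stood at 49.1 and 180 in the wild type and at 13.9 and 65.3 in the dome mutant, and the stress-responsive gene manf at 59.5 and 16.2. The regulators of this response did not share the direction, with 2 of 9 higher, 6 within 2-fold and 1 lower. The higher ones were atf4a and atf4b, which encode activators in amino acid stress, at 20.8 and 10.6 FPKM in the wild type and 74.7 and 32.9 in mutants. The sensor target gene xbp1 stood at 146 and 147.

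**Figure D4:**
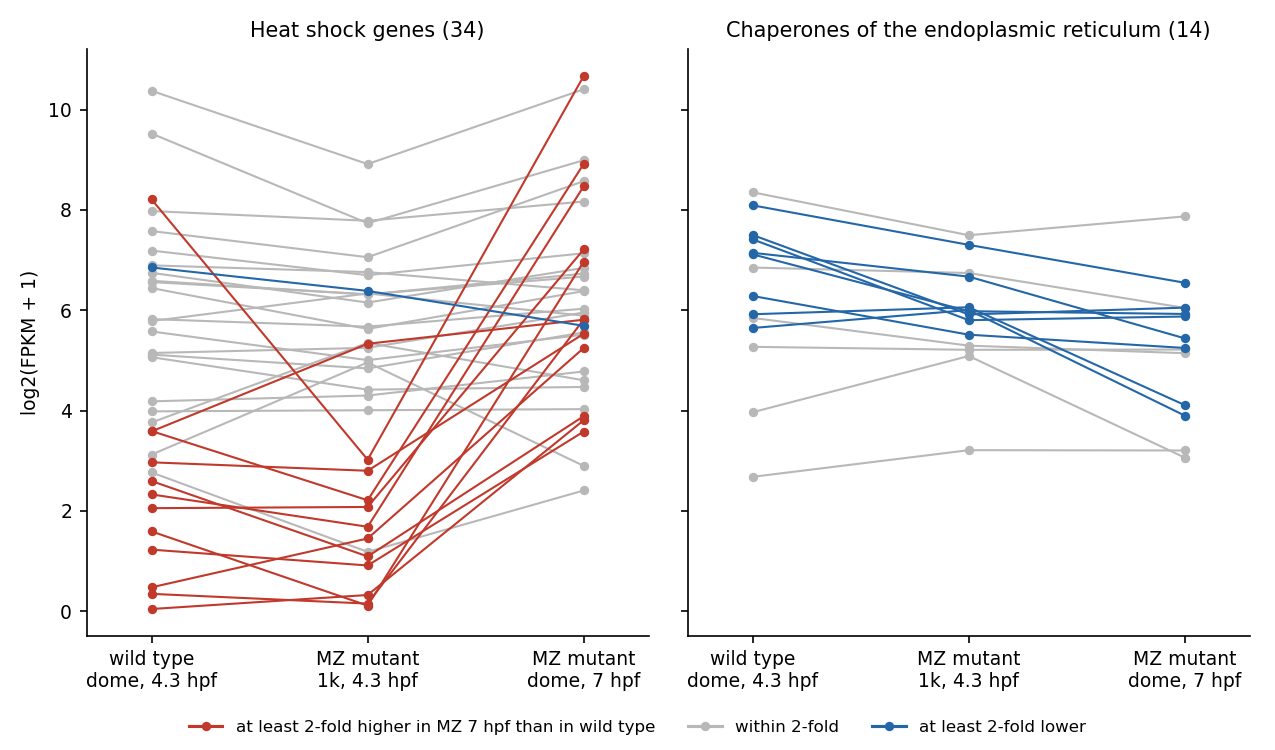
Lines join each gene's log2(FPKM + 1) in the wild type at dome, the MZ mutant at 4.3 hpf and the MZ mutant at dome, 1 library each, for 34 heat shock genes (left) and 14 chaperones of the endoplasmic reticulum (right). In the left panel 12 genes end at least 2-fold above wild type, among them hsp70.3 at 483 FPKM. On the right, 8 of the 14 listed chaperones end at least 2-fold below wild type and 0 above. The collagen chaperones serpinh1a and serpinh1b, also of the endoplasmic reticulum, are drawn on the left.

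Genes of DNA replication and mitosis had shares near those of all genes, of which 71.4% were within 2-fold. Among 50 DNA replication genes, 38 were within 2-fold, 4 higher and 8 lower, and among 45 mitosis genes 34 were within 2-fold, 6 higher and 5 lower. The licensing gene cdt1 stood at 354 FPKM in the wild type and 499 in mutants, and its inhibitor gmnn (geminin) at 610 and 492. Among G1 and S phase genes, 8 of 14 inhibitor and E2F genes were higher and 0 lower, 4 of the 14 passing only through the mutant. Of 10 cyclin and kinase genes in that list, 2 were higher, 6 within 2-fold and 2 lower. The cyclin D gene ccnd1 stood at 70.15 FPKM in the wild type, 1.33 in the mutant at 4.3 hpf and 356 at dome. Cyclin E gene ccne2 stood at 11.9, 1.8 and 98.5, whereas the abundant ccne1 stood at 428, 384 and 469. The kinase inhibitor genes cdkn1ca and cdkn1cb stood at 28.6 and 12.52 in the wild type and at 66.2 and 30.7 in the dome mutant, and the repressor gene e2f7 at 2.25 and 24.4. Lower were the mitotic cyclin gene ccnb2, at 615 and 188 FPKM, and ccna1, the cyclin A of the egg and early embryo, at 755 and 343.

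Genes listed as targets of p53, a regulator of the DNA damage response, included more higher than lower members as deposited. Of 18 past the filter, 4 of them only through the mutant, 11 were higher and 2 lower, against 1 of 11 genes of the apoptosis machinery higher and 0 lower. The sestrin gene sesn3 stood at 1.77 FPKM in the wild type, 0.3 in the mutant at 4.3 hpf and 68.3 at dome. The inhibitor of Akt phlda3 stood at 4.03 and 32.2 in the dome libraries, gadd45aa at 2.06 and 18.01 and the cell cycle inhibitor gene cdkn1a at 4.74 and 19.5. The ubiquitin ligase gene mdm2 stood at 37.1 and 102 FPKM. Its relative mdm4 was lower, at 22.5 FPKM in the wild type, 58.9 in the mutant at 4.3 hpf and 5.13 at dome. The death gene bbc3 (Puma) stood at 1.94 and 8.12. Over the whole stress and apoptosis list of 29, 12 were higher and 2 lower, with a median of 0.56. On the proteasome scaling 6 were higher and 6 lower, with a median of 0.17.

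In pairs of related genes, the one listed as the egg or early-embryo form mostly had the lower ratio. With that gene named first, it had the lower log2 ratio in 12 of 14 pairs with both genes past the filter. The pairs were chosen by hand with earlier results of these data known, so this count is a description. The replication helicase pair showed it, with mcm3l at 49.2 FPKM in the wild type and 15.95 in mutants and mcm3 at 16.5 and 82.0. As a share of the pair, mcm3l made up 74.9% in the wild type, 90.6% in the mutant at 4.3 hpf and 16.3% at dome. The share of mcm6l beside mcm6 was 94.9% in the wild type and 58.0% in the mutant at dome. For the mitotic inhibitor kinases wee2 and wee1, the wee2 share was 84.7% and 34.7%. For the histone mRNA-binding genes slbp2 and slbp, it was 35.7% for slbp2 and then 7.83%. For the import receptor genes kpna7 and kpna2, the kpna7 share was 62.2% and 25.2%, and for the claudin genes cldng and cldne the cldng share was 90.04% and 15.8%. In the SoxB1 pair, sox19b made up 73.5% beside sox19a in the wild type, 99.4% in the mutant at 4.3 hpf and 14.9% at dome. The exceptions were tbpl2 beside tbp, at 3.09% and 3.25%, and mat2al beside mat2aa, at 0.22% and 3.4%, while zar1l beside zar1 stood at 60.4% and 58.6%. Some labels are doubtful. At 0.53 FPKM in the wild type and 0.43 in the mutant at 4.3 hpf, mat2al gave no sign of an egg supply. The log2 ratios of zar1l and zar1 were close, at -0.38 and -0.27, and zar1 stood at 44.95 FPKM in the mutant at 4.3 hpf.

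**Figure D5:**
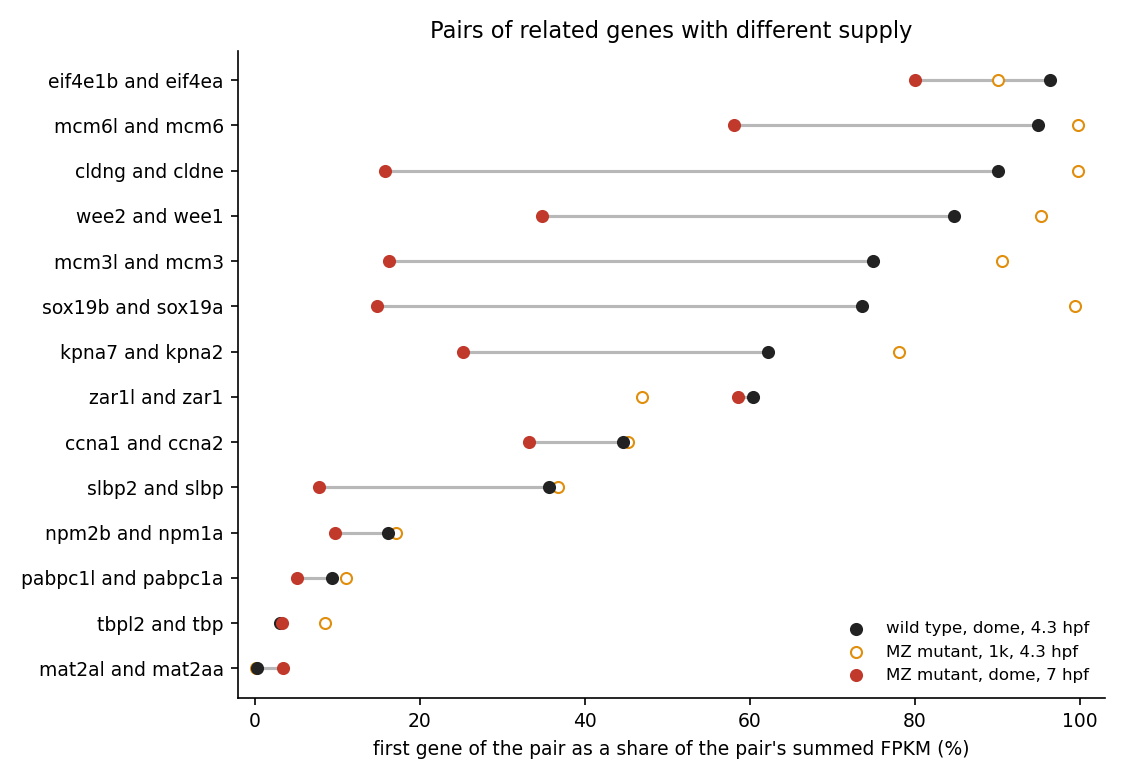
Points give the first-named gene's share of the pair's summed FPKM in percent, in the wild-type dome library (black), the MZ mutant at 4.3 hpf (open) and the MZ mutant at dome (red), for the 14 pairs with both genes past the filter. The red point lies left of the black in 12 pairs, as for cldng and cldne at 90.04% and 15.8%, and right of it for tbpl2 and mat2al.

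Among linker histones, h1m and histh1l showed the same contrast. The oocyte linker histone gene h1m stood at 865 FPKM in the wild type, 489 in the mutant at 4.3 hpf and 277 at dome, and histh1l at 13.7, 1.36 and 148. The gene listed as the partner of h1m was h1f0, which stayed under 5 FPKM, at 2.56 and 4.85. Beside h1f0, the h1m share was 99.7% in the wild type and 98.3% in the dome mutant. Histone gene copies are alike, so how reads were divided among them is uncertain. Over all 783 gene pairs whose symbols differ only in a closing a or b and with both past the filter, 442 had both genes within 2-fold, 28 both higher, 24 both lower and 16 one higher and one lower. The widest apart were b3gnt5a and b3gnt5b, for a glycolipid-building enzyme. The first stood at 0.05 FPKM in the wild type and 32.9 in mutants, and the second at 26.1 and 2.64. The collagen-modifying p4ha1a stood at 0.29 and 9.11 and p4ha1b at 43.8 and 10.2. The mitochondrial citrate carrier genes slc25a1a and slc25a1b stood at 59.3 and 0.13 in the wild type and 28.7 and 6.8 in mutants. The survivin genes birc5a and birc5b stood at 9.76 and 30.6 FPKM in the wild type and 30.01 and 9.34 in mutants. These pairs were chosen for their size after the values were seen.

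Neighbouring genes were at least 4-fold higher together in 6 runs of 3 or more, read from the order of a RefSeq gene table. Of these, 2 held keratin genes, one krt92, cyt1l, cyt1 and krt17 and the other krt5, krt8 and krt18. Another held cldne, cldnf and cldna, and another the zinc finger gene drl between 2 clone-named genes, with all 3 at 19.0 to 27.1 FPKM in the wild type, under 1 in the mutant at 4.3 hpf and at 89.4 to 159 at dome. No run of 3 or more genes at least 4-fold lower was found.

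Machinery shared by all cells was mostly within 2-fold. Of 26 genes listed for the citric acid cycle, 25 were within 2-fold, though 7 were lower on the proteasome scaling. The exception in that list was idh1, for an isocitrate dehydrogenase, at 12.08 and 29.8 FPKM, and its place in the cycle was not checked. Of 26 Mediator genes, 25 were within 2-fold, and 24 were so on the proteasome scaling. Among 66 splicing genes 57 were within 2-fold, 8 higher and 1 lower, and among 80 ribosomal protein genes 66, 13 and 1. The shares within 2-fold were 86.4% and 82.5%, against 71.4% over all genes. They lay near the shares of abundant genes, at 81.1% from 30 to 100 FPKM and 85.8% from 100 to 300. Ribosomal protein genes had a median of 0.55, against 0.08 on the proteasome scaling, where 2 of the 80 were higher. None of 27 aminoacyl-tRNA synthetase genes was higher and 4 were lower (10 on the proteasome scaling), 3 of these the mitochondrial tars2, cars2 and sars2. Single members of such families stood far out. The RNA polymerase III subunit gene polr3gla stood at 48.2 FPKM in the wild type, 0.24 in the mutant at 4.3 hpf and 501 at dome, where 25 of 28 polymerase subunit genes were within 2-fold. Translation elongation gene eef1a1l1 stood at 1913, 493 and 4565, while eef2b stood at 694, 200.04 and 443.

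Transport and metabolic genes were mixed. Of 153 solute carrier genes, 29 were higher, 101 within 2-fold and 23 lower, so their shares lay near those of all genes. Several amino acid transporter genes, picked after their values were seen, stood higher. The heavy chain gene slc3a2b stood at 3.06 FPKM in the wild type, 19.3 in the mutant at 4.3 hpf and 130 at dome, and its partner light chains slc7a8a and slc7a5 stood at 4.76 and 0.32 in the wild type and 71.9 and 7.63 in the dome mutant. The arginine transporter gene slc7a3a stood at 5.74 and 41.9, and slc38a4 and slc38a2, for small neutral amino acids, at 0.43 and 2.38 in the wild type and 25.4 and 17.2 in mutants. Of 16 sphingolipid genes 5 were higher, 10 within 2-fold and 1 lower, with a median of -0.05. The higher share was 31.25% against 14.2% over all genes, but 4 of the 16 passed only through the mutant, which favours a higher ratio. The ceramidase gene acer1 stood at 0.6 and 72.4 FPKM, the desaturase gene degs1 at 1.19 and 24.7 and the ceramide synthase gene cers2b at 5.42 and 38.7, with sphk2 lower at 25.0 and 5.91. Of 19 glycolysis genes 3 were higher, 14 within 2-fold and 2 lower, with a median of -0.54, and 8 were lower on the proteasome scaling. Of 17 cholesterol synthesis genes, 4 of them passing only through the mutant, 3 were higher, 13 within 2-fold and 1 lower, with a median of 0.01. The lower gene was hmgcs1, at 67.5, 101 and 20.1.

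Germ plasm and germ cell genes were lower or within 2-fold. Of 18 past the filter, 9 were lower and 0 higher, and their median was -1.07. Germ plasm carries the factors that set germ cells apart. The tudor genes tdrd1 and tdrd7a stood at 19.5 and 45.7 FPKM in the wild type, 43.5 and 71.6 in the mutant at 4.3 hpf and 5.5 and 16.5 at dome. The germ cell gene dnd1 stood at 23.6, 19.1 and 7.63, whereas ddx4 (vasa) stood at 133, 87.4 and 98.3. The highest ratio in the list was 0.99, of tdrd9, at 18.3 FPKM in the wild type and 37.4 in mutants. On the proteasome scaling 13 of the 18 were lower.

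Other oocyte genes leaned the same way. Of 30 oocyte-derived factors, 11 were lower, 17 within 2-fold and 2 higher, and of 13 zona pellucida genes, which encode the egg coat, 6 were lower and 7 within 2-fold. The translational regulator gene cpeb1b stood at 22.2 FPKM in the wild type, 45.0 in the mutant at 4.3 hpf and 4.6 at dome. The egg coat gene zp3c stood at 42.1, 30.6 and 10.3 and zp2.2 at 84.9, 24.7 and 38.9. The higher genes were stm (starmaker), whose product later shapes the ear stones, at 36.6, 0.1 and 465 FPKM, and figla, an oocyte transcription factor gene, at 4.66, 47.4 and 28.7. At 0.1 FPKM in the mutant at 4.3 hpf, stm gave no sign of an egg supply, so its place in this list is doubtful. Factors of RNA decay stood closer to wild type, with 27 of 32 within 2-fold, 4 lower and 1 higher, and cth1, which encodes an RNA-binding zinc finger protein, was lower at 446, 654 and 118. F-box genes, which choose proteins for destruction, included 10 lower and 2 higher of 39. Of these fbxo43, an inhibitor of meiotic exit, stood at 33.9, 92.2 and 11.8 and fbxo8 at 16.2, 24.3 and 2.67.

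Of the 15 named genes with the smallest ratios, some already stood below the wild type in the mutant at 4.3 hpf, by differing amounts, and some were low only at dome. The potassium channel gene kcnn1b stood at 21.1 FPKM in the wild type, 0.46 in the mutant at 4.3 hpf and 0.12 at dome, a log2 ratio of -4.30. The chitinase gene chia.4 stood at 83.9, 42.1 and 13.7, and the mitochondrial ribosomal gene mrps34 at 31.8, 7.95 and 4.4. The ATP-gated channel gene p2rx4a stood at 24.6, 7.4 and 3.41 FPKM, the zinc finger gene znf1181 at 38.3, 9.5 and 3.6 and the synaptic scaffold gene cttnbp2 at 23.3, 12.9 and 2.59. Others stood about as high or higher in the mutant at 4.3 hpf than in the wild type. The protease gene ctsz (cathepsin Z) stood at 34.0, 32.4 and 5.04 FPKM, the actin-associated afap1l1a at 26.3, 43.6 and 3.63 and the Balbiani body organizer buc at 124, 274 and 20.4. One of the table's rows for ppp1r15b (gene 100538163), which encodes a subunit of the eIF2 phosphatase, stood at 35.6, 52.7 and 5.31.

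At the other end, the named genes with the largest ratios were in part outside the patterning, heat shock and p53 target lists above. The hormone receptor gene crhr2 stood at 3.54 FPKM in the wild type, 0.19 in the mutant at 4.3 hpf and 154 at dome. The LIM domain gene znf185 stood at 1.51, 0.79 and 128, and rabgap1l2, of a family of Rab regulators, at 0.75, 0.22 and 72.9. The gene ponzr5 stood at 0.09 and 39.5 at dome and was listed at 0 in the mutant at 4.3 hpf.

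Set beside the mutant at 4.3 hpf, the genes at least 4-fold higher were mostly under 5 FPKM there. Of the 535 genes at least 4-fold higher than wild type at dome, 317 (59.3%) were under 1 FPKM in the mutant at 4.3 hpf, and 180 of those were under 1 FPKM in the wild type too. Another 106 (19.8%) were at 5 FPKM or more in the mutant at 4.3 hpf, and 62 of those were under 5 in the wild type, among them the DNA methyltransferase gene dnmt3aa at 1.39, 12.7 and 14.6 FPKM and the receptor gene fgfr1b at 3.75, 14.3 and 26.8. Of the 181 genes at least 4-fold lower, 111 (61.3%) were at 5 FPKM or more in the mutant at 4.3 hpf and 34 (18.8%) were under 1. For comparison, of the 9727 genes within 4-fold, 89.6% were at 5 FPKM or more there and 3.38% were under 1. There were 264 genes under 1 FPKM in the mutant at 4.3 hpf and at 5 or more in the wild type. At dome 105 (39.8%) of these were at least 2-fold above wild type, 96 (36.4%) within 2-fold and 63 (23.9%) at least 2-fold below. These genes were picked on the wild-type level, which enters the ratio, so the shares are a description. Members within 2-fold included gata3, at 40.9 FPKM in the wild type and 79.0 in the dome mutant, and the hyaluronan synthase gene has2 at 19.6 and 37.0. Both stood near the 2-fold line, whereas vgll4l, at 182 and 162, was closer to a match. Lagging members included rx3, a homeobox gene of the eye field, at 5.24 and 0.62, and the growth factor gene tgfb2 at 5.22 and 0.33, and 42 of the 63 carried only clone or locus names. Genes named in this paragraph were chosen after their values were seen.

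Summed FPKM was 424486 in the wild type, 397357 in the mutant at 4.3 hpf and 431333 in the mutant at dome, and the 100 most abundant genes held 15.2%, 9.79% and 17.3% of it. Genes listed at 0 numbered 2985, 3999 and 2288. Depth cannot be read from these values, so no interval was given for any gene.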

How the data were processed

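RNA of dechorionated whole embryos was sequenced, 1 library per group, per the labels. Tools in the submitters' processing notes are RSEM 1.2.8, Bowtie2 2.2.5 and Trimmomatic 0.36, with the build GRCz11, without the step each served. The deposited table gives FPKM per library, made by the authors, rounded to 0.01, per the file headers; counts, depth, strand and the treatment of shared reads were not stated there. Rows without values (1051 of 26437) were left out. Symbols come from the table, with 16 turned into dates restored by gene ID from a RefSeq table (GRCz12tu, another build, used for names, gene type and order only).

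A gene was kept at 5 FPKM or more in the higher dome library, and log2 ratios used a pseudocount of 1. With 1 library per group there was no test, error or p-value. Members and lists were chosen with earlier results of these data known. Of 1094 names in 39 lists, 1038 matched by symbol, 31 by the RefSeq table's current symbol and 25 not. Patterns of 57 symbol families were corrected for non-members after matches were seen. Named genes were the mutated genes, the 15 largest and 15 smallest ratios at 20 FPKM or more without clone names, 6 abundant matches, per list up to 5 by size, 3 by level and 2 against the median, whole lists of up to 10, and pairs. Others named were chosen after their values were seen. Sequences and some members are not reported here. Alternatives were pseudocounts of 0.1 and 5, other filters, 4 scalings, coding genes only and a 4-fold threshold. Functions were tested on simulated data. Python 3.11.15, numpy 2.4.6, pandas 2.3.3 and matplotlib 3.10.9 were used.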

Additional observations from a re-analysis of the deposited data

How the results depend on the processing

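No paired analysis was possible because each group holds 1 library and no test was made. Counts of genes at least 2-fold higher (1480), at least 2-fold lower (1507) and within 2-fold (7456) moved by over 1.5 times under these settings. A pseudocount of 5 gave 950 higher and 788 lower. A minimum of 1 FPKM gave 2227 higher, and no filter gave 2227 higher and 21281 within. Scaling on proteasome genes gave 824 higher and 3037 lower. A 4-fold threshold gave 535 higher and 181 lower. Scaling by the median of ratios, to equal sums or without the 1% most abundant genes, a pseudocount of 0.1, other minimums and coding genes alone left the counts within 1.5 times. Of 87 list medians, 58 kept their sign under all 4 scalings. Of 692 named genes, 124 crossed the 2-fold line on the proteasome scaling, 83 with a pseudocount of 5 and 9 to 13 under each other setting tried. With no counts, depth sets a limit on low genes that cannot be given, and 1 library per group leaves no estimate of the spread.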

Other observations

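Cytochrome P450 genes, which oxidise lipids, steroids and vitamins, included 8 higher, 11 within 2-fold and 1 lower of 20 past the filter, 6 of them passing only through the mutant. On the proteasome scaling the same 20 genes had 7 higher and 4 lower. Their median of 0.82 became 0.38 for these 20, and -0.24 with the filter applied after the scaling. The vitamin D-degrading cyp24a1 stood at 0.44 FPKM in the wild type, 0.03 in the mutant at 4.3 hpf and 21.3 at dome. The gene cyp2y3 stood at 5.2, 0.05 and 54.7. Steroid genes differed less or the other way, with cyp11a1 at 61.8, 124 and 72.3 FPKM and cyp17a1 at 44.1, 40.0 and 18.3.

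Lamin genes, which line the nuclear envelope next to the pores, did not share a direction. The gene lmnb1 stood at 248 FPKM in the wild type and 193 in the dome mutant, lmnb2 at 27.6 and 83.8, lmna at 3.2 and 10.4 and lmnl3 at 84.0 and 36.2. Among 25 importin and exportin genes 20 were within 2-fold. Higher were kpna3, at 2.77 and 24.3, and kpna5, at 3.9 and 17.6, and lower with kpna7 were xpo4, at 77.7 and 30.2, and xpo6, at 149 and 38.1.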
